A study of Mus musculus with 4 samples.

Results

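Mesenchymal cells of the embryonic thymus were chosen as smooth-muscle-like by their Acta2, Tagln and Eln transcripts. They numbered 68 among the 29510 cells kept from 4 droplet scRNA Seq libraries. The Tbx1+/+ carrier library held 18 of these cells and the Tbx1neo2/neo2 carrier library 14, whose other markers went against that name. The Tbx1neo2/neo2 minoxidil library held 4 and the Tbx1neo2/neo2 PGE2 library 32. Each kept cell had at least 200 genes and at most 10% of its UMIs (unique molecular identifiers, which count transcripts) on mitochondrial genes. A mesenchymal gate took cells with UMIs of at least 4 of the 8 genes Pdgfra, Pdgfrb, Twist1, Prrx1, Dcn, Lum, Postn and Fbn1 and none of Epcam, Ptprc or Cdh5, which left 9258 cells. The 68 cells were then selected on raw UMIs, with at least 10 of Acta2, 5 of Tagln and 3 of Eln, at most 1 each of Kcnj8, Col2a1 and Top2a, and 0 of Chrna1. These limits therefore fix part of what the cells look like, and the values of those genes are given as a description.

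The libraries were made from trypsin-digested thymic lobes of mouse embryos at E13 to 13.5. Tbx1+/+ carrier embryos carried both wild-type alleles, whereas the 3 other groups were homozygous for neo2, a hypomorphic allele with a neomycin cassette inside an intron of Tbx1. Pregnant mice had received injections on E8, E9 and E10 of 5% ethanol as carrier, of 200 µl of minoxidil at 0.55 mg/ml, or of 90 µl of PGE2 at 3.6 ng/µl. There was 1 library per group, so no test across embryos was possible. The design text speaks of an embryo per condition whereas the methods state that lobes were pooled for hypoplastic tissue, so the number of embryos behind a library is uncertain. All intervals below are 95% intervals that cover counting error only. Depth was uneven. In the order given above, the selected cells had 19149.5, 17989, 38875 and 31686.5 UMIs at the median, from 347959, 277764, 155468 and 1003848 UMIs in all. No barcode of a selected cell occurred in another library, although the libraries shared between 4 and 35 barcodes pairwise.

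Smooth muscle cells and pericytes wrap the endothelium of growing vessels and are together called mural cells. Serum response factor and its coactivator myocardin drive their contractile genes through CArG boxes, while Jag1 and Notch3 signal between endothelium and mural cells and act through the Hey factors. The artery wall around the cardiac outflow and the vessels that enter the thymus arises in large part from neural crest mesenchyme, and elastin is laid down there before birth. Similar contractile genes are also used by myofibroblasts, fascia and the walls of airway and gut.

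The 4 libraries did not hold the same kind of cell under this name. Rgs5, a mural cell regulator of G protein signalling, had a UMI in 13 of the 18 Tbx1+/+ carrier cells, in 4 of the 4 minoxidil cells and in 32 of the 32 PGE2 cells, but in 1 of the 14 Tbx1neo2/neo2 carrier cells. Together with Fbln5, the elastic fibre protein fibulin-5, Rgs5 was found in 12, 1, 4 and 32 cells, 49 of the 68. The name smooth-muscle-like therefore rests on its markers in the Tbx1+/+ carrier, minoxidil and PGE2 libraries, and the Tbx1neo2/neo2 carrier cells go against it. They are called here by the rule alone, Acta2 Tagln Eln cells. All 14 of them had between 3 and 5 UMIs of Eln, whereas 11 Tbx1+/+ carrier cells, all 4 minoxidil cells and all 32 PGE2 cells had at least 10. Values are given below with that library and, where it decides them, without it. With 4 cells, the minoxidil library gives the least precise values.

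The Eln limit cut off a large population in the Tbx1neo2/neo2 carrier library. Leaving that limit out, 25 Tbx1+/+ carrier, 279 Tbx1neo2/neo2 carrier, 5 minoxidil and 34 PGE2 cells met every other condition. Of these, 7, 265, 1 and 2 cells lay below 3 UMIs of Eln, or 28.0%, 94.98%, 20% and 5.88%. In the Tbx1neo2/neo2 carrier library 194 of them had no Eln UMI, 51 had 1 and 20 had 2, and just inside the limit stood 8 cells with 3 UMIs, 3 with 4 and 3 with 5. No cell of that library reached 6, while the highest values elsewhere were 113, 258 and 384 UMIs. The distribution of Eln in the Tbx1neo2/neo2 carrier library was thus continuous across the limit, with the selected cells as its upper end. Elsewhere 14 Tbx1+/+ carrier, 4 minoxidil and 32 PGE2 cells had 6 or more.

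**Figure D1:**
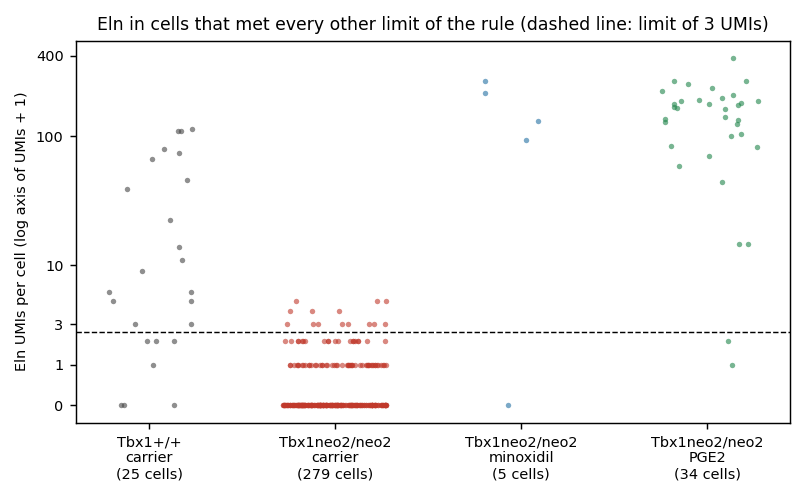
Eln UMIs per cell (vertical log axis of UMIs + 1) in every cell that met all other limits of the rule, by library, with the limit of 3 UMIs as a dashed line. Of the 279 Tbx1neo2/neo2 carrier cells 265 lie below the line and none above 5 UMIs, while the PGE2 cells reach 384.

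Few genes separated the 14 selected cells of that library from the 265 below the limit. Summed levels are given as CPM, UMIs scaled to 1000000 UMIs of the cell set, and a gene was called higher or lower where the ratio of its levels was 2 or more and their intervals lay apart, among genes at 50 CPM or more in 1 of the 2 sets. By that measure 54 of 3268 genes were higher (1.65%) and 13 lower (0.398%) in the 14 cells than in the 265. Acta2 was at 2239 (2067 to 2422) CPM in the former and 2053 (2012 to 2094) CPM in the latter, and Tagln at 1069 (951 to 1198) and 1212 (1180.4 to 1244) CPM. Rgs5 was at 0.861 (0.234 to 2.20) CPM in the 265 cells, and Fbln5 at 83.7 (75.6 to 92.4) CPM. Acta2 and Tagln were required by the rule in both sets. Of contractile genes outside it, Myl9 was at 533 in the 14 and 589 CPM in the 265 cells, Cald1 at 1314 and 1344 CPM and Cnn1 at 209 and 105 CPM. Among the called genes were Timp3, an inhibitor of matrix proteases, at 338 against 78.5 CPM, and Nefm, a neurofilament subunit, at 281 against 35.3 CPM, both higher in the 14 cells, although 1 cell held 48.7% of their Nefm UMIs. Irx3 and Irx5, a pair of homeobox factors, were lower there, at 21.6 against 59.6 and 28.8 against 83.9 CPM. Of genes named again below, Aspn, Meox1, Col9a2 and C1qtnf3 were also called higher in the 14 cells, Aspn at 972 against 419 CPM. Hoxc8 was called lower there, at 57.6 against 139 CPM.

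Of the other limits, those on Kcnj8 and Col2a1 also fell unevenly on the libraries. The Kcnj8 limit, which keeps out pericytes, was the only one missed by 16 Tbx1+/+ carrier, 1 Tbx1neo2/neo2 carrier, 19 minoxidil and 35 PGE2 cells. These were 47.1% of 34, 6.67% of 15, 82.6% of 23 and 52.2% of 67 cells that met every other condition. Of the selected cells 7, 0, 2 and 11 stood at its edge with 1 UMI. Cells with Kcnj8 thus bordered the selected ones in the same 3 libraries where Rgs5 was common. The Acta2 limit alone was missed by 19, 24, 11 and 13 cells, whose median Acta2 count was 0, 0, 1 and 1. Just outside it stood 0, 1, 1 and 2 cells with 9 UMIs. Most cells outside that limit thus lay far below it. The Top2a limit, which keeps out dividing cells, was missed alone by 6, 10, 5 and 28 cells, and the Col2a1 limit on cartilage collagen by 0, 11, 0 and 1 cells.

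With the Eln limit, selected cells were most frequent in the PGE2 library. Without it, 279 of 5205 Tbx1neo2/neo2 carrier gate cells and 34 of 768 PGE2 gate cells met the other conditions, a larger share in the former. As a share of gate cells, Tbx1+/+ carrier embryos had 0.743% (0.441 to 1.17) of 2422, with 0.269% (0.147 to 0.451) of 5205 in the Tbx1neo2/neo2 carrier library, 0.463% (0.126 to 1.18) of 863 with minoxidil and 4.17% (2.87 to 5.83) of 768 with PGE2. The exact binomial (Clopper-Pearson) interval of the PGE2 share lay above those of the 3 other libraries, and the other 3 intervals overlapped. Per kept cell the shares were 0.157%, 0.131%, 0.125% and 0.771%, so that the PGE2 library also stood apart without the gate in the denominator. A shallow cell reaches fixed UMI limits less easily. After thinning every cell to 10000 UMIs, which left out the shallower ones, the shares were 0.481% (11 of 2285), 0.169% (7 of 4141), 0.703% (6 of 853) and 4.55% (32 of 703). Only 6, 4, 0 and 12 cells were chosen both before and after thinning. Thinning also makes upper limits easier to meet. Each cell chosen only after it had thus missed an upper limit, or a limit of 0, on raw UMIs. Among the shares the PGE2 one alone changed by less than 1.5 times, although only 12 of its 32 cells were the same. Gate cells themselves were 5205 of 10683 kept cells in the Tbx1neo2/neo2 carrier library and 768 of 4152 in the PGE2 library, and the part of that difference in the shares was not tested.

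**Figure D2:**
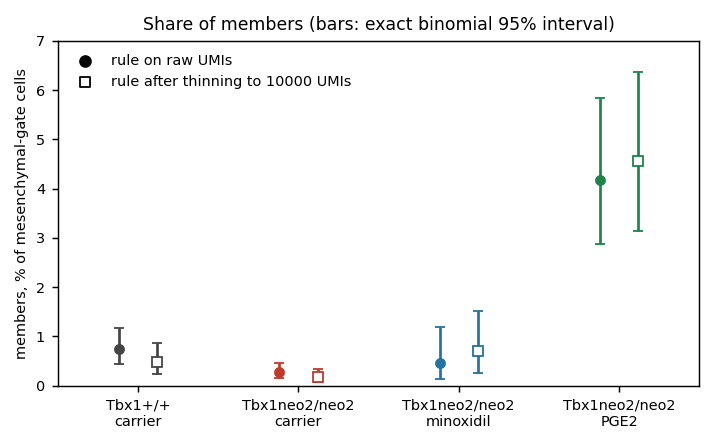
Selected cells as a percentage of gate cells in each library (vertical axis), on raw UMIs (filled circles) and after thinning to 10000 UMIs (open squares), with exact binomial 95% intervals as bars. The PGE2 values of 4.17% and 4.55% lie above the intervals of every other library.

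The genes of the rule varied widely from cell to cell. Acta2 lies at chr19:34241090-34255590, Tagln at chr9:45929619-45936058, Eln at chr5:134702593-134747323 and Rgs5 at chr1:169655501-169695813 (GRCm38, GENCODE vM21). Acta2, smooth muscle actin, ran from 11 to 156 UMIs with a median of 37.5 in Tbx1+/+ carrier cells, from 13 to 142 (median 38) in Tbx1neo2/neo2 carrier cells, from 15 to 98 (median 52) with minoxidil and from 10 to 314 (median 73) with PGE2. Summed, it was at 2747 (2576 to 2927), 2239 (2067 to 2422), 1396 (1216 to 1594) and 2705 (2604 to 2808) CPM. Tagln, the actin binding protein transgelin, ran from 6 to 158 UMIs (median 43.5), 5 to 58 (median 15), 14 to 115 (median 58) and 5 to 250 (median 76.5), or 2696 (2526 to 2874), 1069 (951 to 1198), 1576 (1385 to 1786) and 2516 (2419 to 2616) CPM. The ranges of both genes overlapped across all libraries, with Tagln lowest in the Tbx1neo2/neo2 carrier library. Eln, the elastin precursor tropoelastin, ran from 3 to 113 UMIs (median 18.5), 3 to 5 (median 3), 94 to 258 (median 170) and 15 to 384 (median 164), or 2084 (1935 to 2241), 184 (137 to 241), 4445 (4119 to 4789) and 4944 (4807 to 5083) CPM. On the per-cell counts no minoxidil or PGE2 cell overlapped the Tbx1neo2/neo2 carrier cells for Eln, whereas 4 Tbx1+/+ carrier cells did.

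Rgs5 and Fbln5, which the rule did not use, were lowest in the Tbx1neo2/neo2 carrier library, as was Eln. Rgs5 ran from 0 to 33 UMIs (median 17.5) in Tbx1+/+ carrier cells, 0 to 1 (median 0) in Tbx1neo2/neo2 carrier cells, 30 to 59 (median 44.5) with minoxidil and 5 to 73 (median 21) with PGE2, or 845 (751 to 947), 3.6 (0.0911 to 20.1), 1145 (983 to 1326) and 845 (789 to 904) CPM. Fbln5 ran from 0 to 52 UMIs (median 14.5), 0 to 7 (median 1.5), 26 to 70 (median 37.5) and 10 to 86 (median 46), or 914 (816 to 1020.1), 97.2 (64.1 to 141), 1099.9 (941 to 1278) and 1496 (1422 to 1574) CPM. Mgp, matrix Gla protein, which keeps arterial walls and cartilage from calcifying, had a UMI in 18 of 18, 6 of 14, 4 of 4 and 32 of 32 cells, with medians of 33, 0, 101 and 80 UMIs and levels of 1939.9 (1796 to 2092), 39.6 (19.8 to 70.9), 2779 (2523 to 3054) and 2556 (2458 to 2657) CPM. Each of the 3 genes was thus lowest in the Tbx1neo2/neo2 carrier library, without overlap of its cells with those of either drug library. The other gate cells of that library were also lower than those of the Tbx1+/+ carrier library for 2 of them. Rgs5 was at 9.35 against 59.5 CPM there and Mgp at 154 against 539 CPM. In Ptprc+ blood cells, which should lack these genes, Mgp had a UMI in 15.5%, 4.48%, 21.2% and 9.51% and Rgs5 a UMI in 1.05%, 0.538%, 1.89% and 1.29% of cells at median depths of 33118.5, 26255.5, 59655.5 and 45821 UMIs. The 7.14% of Tbx1neo2/neo2 carrier cells with Rgs5 was a single UMI in 1 cell, and its Clopper-Pearson interval, on raw UMIs, reached from 0.181% to 33.9%.

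**Figure D3:**
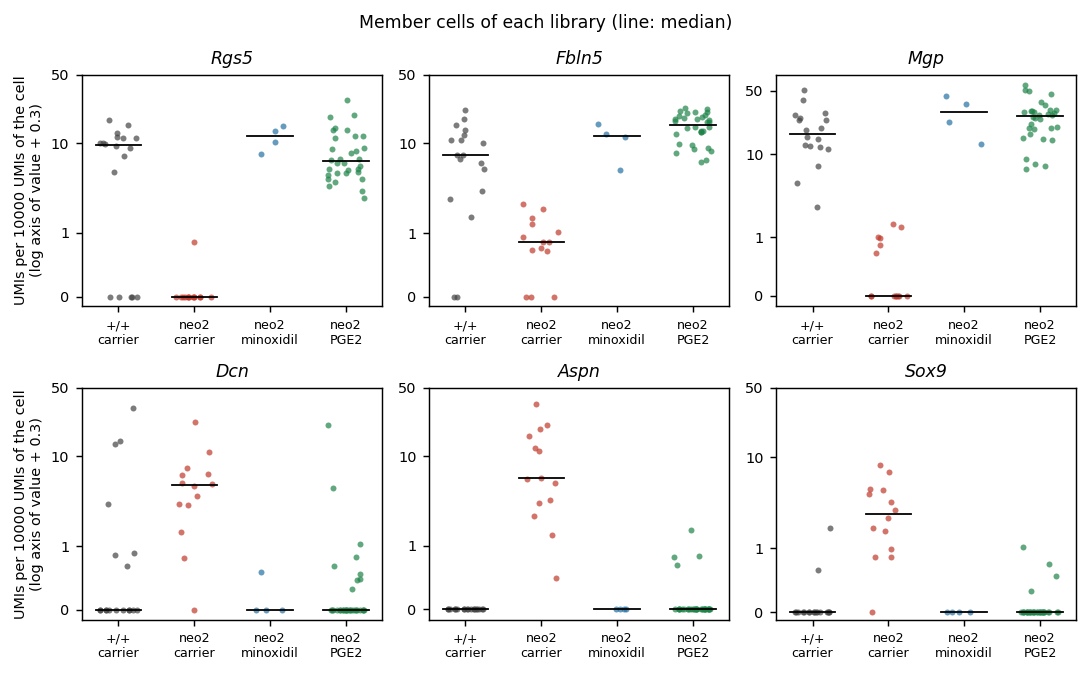
Level in each selected cell (points, UMIs per 10000 UMIs of the cell on a log axis of the value + 0.3, with the median as a line), by library, for Rgs5, Fbln5, Mgp, Dcn, Aspn and Sox9. Rgs5 and Mgp separate the Tbx1neo2/neo2 carrier cells from the drug-exposed cells, and Aspn has UMIs in all 14 Tbx1neo2/neo2 carrier cells but in 0, 0 and 4 cells elsewhere.

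The selected cells of the Tbx1+/+ carrier library were themselves mixed. Of the 18 cells 5 had no Rgs5, none of them with a UMI of Xist, which all 13 others had, and 3 of those 5 had at least 5 UMIs of Dcn, the fibroblast proteoglycan decorin, with Eln at 14 UMIs or less. That combination of no Rgs5 with at least 5 Dcn UMIs was found in 9 of 14 Tbx1neo2/neo2 carrier cells. It could not occur in minoxidil or PGE2 cells, all of which had Rgs5. Rgs5 together with at least 5 Dcn UMIs was found in 1, 1, 0 and 2 cells. Dcn had a UMI in 7, 13, 1 and 9 cells and was at 353 (294 to 422), 626 (537 to 727), 12.9 (1.56 to 46.5) and 72.7 (57.0 to 91.4) CPM. A single cell, with Rgs5, held 52.0% of the Dcn UMIs of the Tbx1+/+ carrier cells, and another held 72.6% of those with PGE2. Of Ptprc+ cells 9.89%, 6.45%, 13.6% and 7.46% had a UMI of Dcn. Lum, a related proteoglycan, had a UMI in 13, 14, 1 and 12 cells, and Twist1, a mesenchymal factor, in 9, 14, 0 and 3. In contrast, Fbn1, which encodes the microfibril protein fibrillin-1, was at 437, 100.8, 457 and 416 CPM and Pdgfrb, the mural cell receptor for PDGF-B, at 132, 21.6, 154 and 91.6 CPM. Pdgfrb had a UMI in 15, 5, 4 and 29 cells, against 62.7%, 51.8%, 67.0% and 65.0% of Ptprc+ cells, and Postn, the matrix protein periostin, in 16, 13, 4 and 31. The genes that carried cells through the mesenchymal gate thus differed, with Fbn1 in every minoxidil and PGE2 cell and Twist1, Lum and Prrx1 in each of the 14 Tbx1neo2/neo2 carrier cells.

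The summed level of contractile genes was similar in the 4 libraries, although single genes differed. The 40 genes of a contractile list, genes of the rule left out, summed to 12266, 12532, 10677 and 12106 CPM in the selected cells and to 5001, 5896, 5326 and 6447 CPM in the other gate cells. Of 2710 genes compared in every library, 15 were at least 2-fold higher in the selected than in the other gate cells in all 4 (0.554%) and 32 at least 2-fold lower (1.18%). Because the cells were chosen for contractile transcripts, this is a description. Without the Tbx1neo2/neo2 carrier library, 85 of 2944 genes were higher (2.89%) and 121 lower (4.11%). Of those 85 genes, 29 were also at least 2-fold higher in the Tbx1neo2/neo2 carrier cells than in their own gate cells, and 6 were at least 2-fold lower there, counting also genes below 50 CPM in that library, which the 15 leave out.

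Cnn1, Tnfrsf12a and Ier3 headed the shared genes, ranked by the lowest ratio over the 4 libraries. Cnn1, the smooth muscle calponin that damps actomyosin, was at 204, 209, 148 and 183 CPM in the selected cells against 4.77, 27.2, 8.00 and 28.4 CPM in the other gate cells. It had a UMI in 13 of 18, 11 of 14, 3 of 4 and 24 of 32 cells, against 0%, 0.717%, 0% and 0.257% of Ptprc+ cells. Myl9, the regulatory light chain of smooth muscle myosin, was at 575, 533, 515 and 757 CPM against 119, 189.9, 157 and 269 CPM, with overlapping intervals in the first 3 libraries. Csrp1 and Csrp2, LIM proteins that bind actin and bridge serum response factor to GATA factors, were at 204, 173, 180.1 and 206 CPM and 1152, 939.6, 926 and 1129 CPM. Focal adhesion and cytoskeletal genes Vcl, Pdlim1, Pdlim7, Pls3, Dst and Tagln2 were also among the 20 genes with the highest minimum ratio, as were Lox, Loxl1 and Adamts2, whose products cross-link elastin and collagen or trim procollagen. Tnfrsf12a, the TWEAK receptor, was at 83.3, 79.2, 122 and 141 CPM against 5.69, 13.8, 6.16 and 19.0 CPM. The rest of the 20 were Ier3, Inhba, Wisp1, Msrb3, Dclk1 and Pcdh7, with minimum log2 ratios between 0.91 and 2.11. Top2a was limited by the rule, and at the other end of the ranking Prc1, Cenpf, Ube2c, Mki67 and the histone genes Hist1h1b, Hist1h2ap, Hist1h2ab and Hist1h2ae, all of dividing cells, stood beside Crabp1, which binds retinoic acid, and Ifitm1.

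Because the CArG box is the site of serum response factor, it was searched by name on both strands of the 250 bases before the RefSeq start (GRCm38.p6) of these genes. It occurred in 1.47% of 32851 promoters of all genes. Of the 20 genes 16 matched the table, with 21 promoters, and 2 of those held a match, those of Myl9 and Vcl. The Myl9 promoter is shown because this light chain was high in all 4 libraries, from chr2:156775214-156775413 on the plus strand, without the 50 bases next to the start and with the CArG box 161 bases before it in capitals.
Myl9: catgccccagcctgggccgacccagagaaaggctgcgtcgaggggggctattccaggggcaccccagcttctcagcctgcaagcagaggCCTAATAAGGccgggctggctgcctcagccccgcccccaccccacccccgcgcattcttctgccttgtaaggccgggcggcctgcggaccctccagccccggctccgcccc
A match describes letters in this window and was not tested as a site.

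Between libraries the contractile genes did not move as one. The first contrast set Tbx1neo2/neo2 against Tbx1+/+ cells, both with carrier, the others set each drug library against the Tbx1neo2/neo2 carrier library, and all of them share the Tbx1neo2/neo2 carrier cells. In the first contrast 244 of 3574 genes were higher (6.83%) and 209 lower (5.85%) in the Tbx1neo2/neo2 carrier cells. With minoxidil 213 of 3675 genes were higher (5.80%) and 311 lower (8.46%), and with PGE2 266 of 3485 were higher (7.63%) and 397 lower (11.4%). A call can rest on 1 cell. As a check, the UMIs of a gene in its top cell were taken out of the library where the gene was higher. The library total was kept and the floor of 50 CPM applied again. This lowers every such level, most where cells are few, so a lost call need not have rested on 1 cell. After it, 127 higher and 107 lower calls of the first contrast remained, with 61 and 170 for minoxidil and 189 and 194 for PGE2. Below, this is called leaving out the top cell. Of the called genes, 82 higher and 58 lower in the first contrast were called in the same direction in the other gate cells, with 58 and 77 for minoxidil and 77 and 89 for PGE2. In those other gate cells 3.94% of genes were called higher and 3.66% lower in the first contrast, 4.45% and 3.53% with minoxidil, and 4.58% and 3.11% with PGE2.

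Of 27 contractile genes measured in the first contrast 1 was higher and 9 were lower in the Tbx1neo2/neo2 carrier cells (median log2 ratio -0.29, against 0.04 over all genes, medians being taken over genes with at least 20 UMIs in the pair of libraries). With minoxidil 7 of 26 were higher and 5 lower (median -0.11 in both the list and all genes), and with PGE2 12 of 27 were higher and 3 lower (median 1.16 against -0.05). The list therefore split by gene with minoxidil and leaned down in the first contrast and up with PGE2. Among cells chosen after thinning the minoxidil median was 0.44 and the PGE2 median 0.39, and at a mitochondrial limit of 5% the first median was -0.02 and that with PGE2 0.35. Lmod1, which nucleates actin filaments in smooth muscle, was at 94.8, 10.8, 90.1 and 136 CPM and Mylk, the kinase of the regulatory light chain, at 71.8, 10.8, 90.1 and 92.6 CPM. Both were lowest in the Tbx1neo2/neo2 carrier cells, as were the focal adhesion protein gene Actn1 at 489, 158, 682 and 543 CPM and Fhl1, a LIM gene of muscle, at 89.1, 0, 122 and 144 CPM. Tpm1, a tropomyosin, went the other way at 1782, 3215, 1576 and 1477 CPM, and so did Cnn3, the non-muscle calponin, at 241, 616, 193 and 196 CPM. Myl6, the essential light chain, and Cald1, caldesmon, differed little, at 1779, 1847, 1897 and 1759 and 1236, 1314, 1434 and 1139 CPM. Myh11, the myosin heavy chain of mature smooth muscle, had UMIs in 7 of 18, 1 of 14, 0 of 4 and 17 of 32 cells. Its 43.1, 7.20, 0 and 114 CPM included, in the PGE2 library, 53 of 114 UMIs from a single cell. Actg2, enteric smooth muscle actin, was at 302, 82.8, 12.9 and 185 CPM, low with minoxidil as well as in the Tbx1neo2/neo2 carrier cells. Of the 23 Actg2 UMIs of the Tbx1neo2/neo2 carrier cells 1 cell held 19, and 11 of the 14 cells had none.

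Transcription factors of the smooth muscle programme differed between the libraries in both directions. Myocd, which encodes myocardin, had UMIs in 6 of 18, 0 of 14, 3 of 4 and 19 of 32 cells and was at 31.6 (15.8 to 56.6), 0 (0 to 13.3), 38.6 (14.2 to 84.0) and 44.8 (32.7 to 59.98) CPM. No Ptprc+ cell of any library had a UMI of Myocd. Srf, its partner, was at 20.1, 28.8, 25.7 and 17.9 CPM, with intervals that overlapped in all libraries. Foxs1, a forkhead factor of mural cells, was at 31.6, 0, 45.0 and 32.9 CPM and Prdm6, a smooth muscle repressor, at 86.2, 3.6, 103 and 73.7 CPM. Mef2c and Hand2, factors of the outflow tract and arches, were at 316, 108, 360.2 and 208 and 89.1, 25.2, 70.8 and 98.6 CPM, and Gata6 at 282, 155, 232 and 267 CPM. Each of these but Srf had its lowest level in the Tbx1neo2/neo2 carrier cells, although Myocd, Foxs1 and Srf stayed under 50 CPM in every library and Gata6 differed by less than 2-fold. In contrast, 4 regulators were higher there, Meox1 at 25.9, 216, 6.43 and 27.9 CPM, Tbx3 at 2.87, 90.004, 0 and 0 CPM, Tbx2 at 17.2, 64.8, 0 and 5.98 CPM and Ebf2 at 11.5, 54.0, 0 and 0.996 CPM. Across the list of 37 regulators 4 of 16 genes were higher and 7 lower in the first contrast. With minoxidil 5 and 4 of 16 were higher and lower, and with PGE2 6 and 4 of 16. Without the top cell of each gene 6, 4 and 7 of these calls were left in the 3 contrasts. The median log2 ratio of the list in the first contrast was -1.21 in the selected and -1.23 in the other gate cells. Tbx5, a limb and heart factor outside that list, had 19 UMIs in the Tbx1neo2/neo2 carrier cells, at 68.4 (41.2 to 107) CPM, and 0 in the 3 other libraries.

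Notch genes also differed between the libraries. Jag1, the Notch ligand of endothelium and mural cells, had UMIs in 13 of 18, 1 of 14, 4 of 4 and 29 of 32 cells and was at 178 (137 to 228), 3.6 (0.0911 to 20.1), 225 (157 to 313) and 160.4 (137 to 187) CPM. Heyl, a direct Notch target in mural cells, had UMIs in 14, 0, 4 and 27 cells, and Hey2, its arterial relative, in 8, 0, 4 and 26. Their levels were 126 (91.9 to 169.8), 0 (0 to 13.3), 83.6 (44.5 to 143) and 91.6 (73.9 to 112) CPM and 57.5 (35.1 to 88.8), 0 (0 to 13.3), 70.8 (35.3 to 127) and 60.8 (46.5 to 78.1) CPM. Of Ptprc+ cells 4.42%, 3.23%, 5.68% and 6.94% had a UMI of Jag1, 2.41%, 1.61%, 3.03% and 3.599% of Heyl, and 0.643%, 0.358%, 2.65% and 1.03% of Hey2. The single Jag1 UMI of the Tbx1neo2/neo2 carrier cells was thus not apart from background. No Tbx1neo2/neo2 carrier cell had a UMI of either target, although Notch3, the mural receptor, was found in 11, 8, 4 and 28 cells at 74.7, 46.8, 161 and 99.6 CPM. Notch1, another receptor, was at 74.7, 25.2, 109 and 67.7 CPM and Hes1, a broader target, at 74.7, 32.4, 122 and 82.7 CPM. Among 32 Notch and angiogenic genes 2 of 17 were higher and 7 lower in the first contrast. With minoxidil 11 of 19 were higher and 2 lower, and with PGE2 10 of 18 were higher and 3 lower. The median log2 ratio of the list in the first contrast was -0.88 in the selected and -0.78 in the other gate cells. It was 1.78 and 0.50 with minoxidil and 0.75 and 1.03 with PGE2. The guidance receptor Nrp1, which binds VEGF and semaphorins, was at 431, 25.2, 315 and 304 CPM and the chemokine Cxcl12 at 224, 57.6, 238 and 513 CPM. Nrp2 and Angptl1, an angiopoietin-like protein, ran against the group at 17.2, 64.8, 0 and 12.95 and 2.87, 180.0, 12.9 and 28.9 CPM.

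The core of the site of RBPJ, the DNA-binding partner of Notch, was searched as TGGGAA on both strands of the same windows, where 21.6% of the 32851 promoters held it. The Hey2 promoter held 1 match and is shown because Hey2 had no UMI in the Tbx1neo2/neo2 carrier cells. It lies at chr10:30842834-30843033 (GRCm38.p6, minus strand), again without the 50 bases next to the RefSeq start, and the match, on the opposite strand, stands in capitals 207 bases before that start.
Hey2: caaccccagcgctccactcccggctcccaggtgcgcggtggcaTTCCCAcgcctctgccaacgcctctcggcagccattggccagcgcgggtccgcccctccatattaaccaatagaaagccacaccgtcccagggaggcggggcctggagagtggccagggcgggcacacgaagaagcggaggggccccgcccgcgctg
This match, too, describes letters only, which 7094 of all windows held.

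Pericyte and mural genes beyond Rgs5 were low in the Tbx1neo2/neo2 carrier cells. The 23 genes of that list, Rgs5 among them, summed to 1759, 256, 2135 and 1669.6 CPM in the selected cells and 761, 314, 786 and 1049 CPM in the other gate cells. In the first contrast 0 of 10 genes were higher and 8 lower (median log2 ratio -2.84), with minoxidil 7 of 9 were higher and 0 lower (2.93), and with PGE2 7 of 8 were higher and 0 lower (2.65). Gucy1a3 and Gucy1b3, the subunits of the nitric oxide receptor guanylate cyclase, were at 109, 7.20, 187 and 128 CPM and 77.6, 0, 116 and 91.6 CPM. Abcc9, the sulfonylurea receptor subunit of the potassium channel that minoxidil opens, was at 80.5, 0, 51.5 and 30.9 CPM, while its pore subunit Kcnj8 was held at 1 UMI or less by the rule. Cspg4, the NG2 proteoglycan, and Mcam, an adhesion molecule of mural cells, were at 86.2, 7.20, 122 and 64.8 and 89.1, 14.4, 38.6 and 66.7 CPM. Pde3a, a phosphodiesterase of vascular smooth muscle, was at 100.6, 3.6, 96.5 and 152 CPM. In summed levels the 3 libraries other than the Tbx1neo2/neo2 carrier thus shared a mural profile. Of the 18 Tbx1+/+ carrier cells, however, 5 had no Rgs5. Against pericytes, here the 504, 168, 229 and 214 gate cells with at least 2 UMIs of Kcnj8, 1 of Abcc9 and at most 1 of Top2a, Fbln5 was at 914, 97.2, 1099.9 and 1496 CPM in the selected cells and 41.8, 13.9, 98.0 and 243 CPM in pericytes. Rgs5 was at 94.9, 56.2, 119.9 and 205 CPM in pericytes, below the selected cells in all libraries but the Tbx1neo2/neo2 carrier.

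The 4 receptors for PGE2 had few UMIs in the selected cells. Ptger2 and Ptgir, receptors for PGE2 and prostacyclin, and Kcnj11, a potassium channel subunit related to Kcnj8, had 0 UMIs in all 4 libraries, which allows up to 3 UMIs in each. Of the other PGE2 receptors Ptger1 had 0, 0, 2 and 1 UMIs, Ptger3 2, 4, 0 and 2, and Ptger4 0, 2, 0 and 0. Ptger2, Ptgir and Kcnj11 were thus not detectable at this depth. Ptgis, prostacyclin synthase, was at 86.2, 43.2, 57.9 and 97.6 CPM, and Agtr2, an angiotensin receptor of embryonic mesenchyme, at 0, 162, 0 and 0.996 CPM, that is in the Tbx1neo2/neo2 carrier cells apart from 1 UMI with PGE2. Of 6 genes of the prostaglandin and vasoactive list 1 was higher and 3 lower in the first contrast, 3 and 1 of 6 with minoxidil and 3 and 1 of 5 with PGE2.

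**Figure D4:**
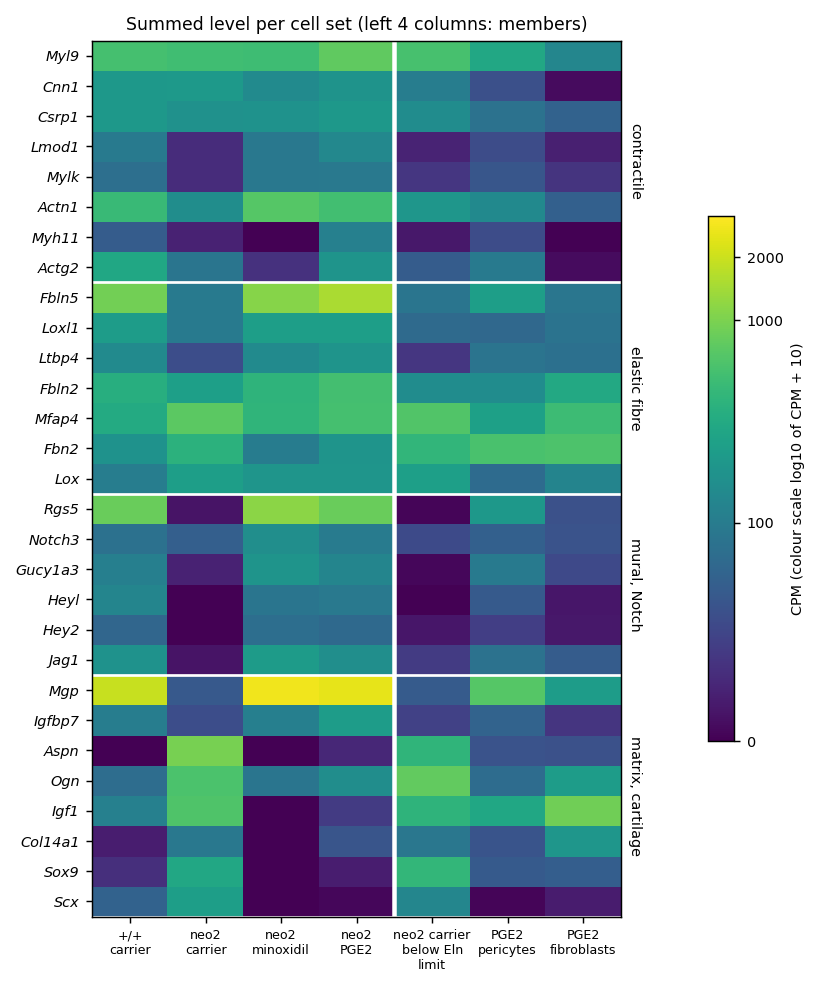
Summed CPM (colour, log10 of CPM + 10) of genes grouped by role (rows) in the selected cells of the 4 libraries (left columns) and, for comparison, in the Tbx1neo2/neo2 carrier cells below the Eln limit and in pericytes and fibroblasts of the PGE2 library, the fibroblasts being gate cells with at least 5 UMIs of Dcn and at most 2 of Acta2 that met the other upper limits. Of the contractile genes Myl9 and Cnn1 are similar in the 4 left columns. Lmod1, Mylk, Actn1 and Actg2 are lower in the Tbx1neo2/neo2 carrier than in the Tbx1+/+ carrier column. Rgs5, Heyl, Hey2 and Jag1 are near 0 in the Tbx1neo2/neo2 carrier column, where Aspn reaches 972 CPM.

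Elastic fibre genes beside Eln were present in every library. The 25 genes of the list, Fbln5 included and Eln left out, summed to 3791, 3719, 4091 and 5003 CPM in the selected cells against 2557, 2762, 2740.5 and 3180.4 CPM in the other gate cells. Without Fbln5, 24 genes summed to 2877, 3622, 2991 and 3507 CPM in the selected cells, so that the Tbx1neo2/neo2 carrier cells were not low by this sum. The list lacks Fbn1, a gene of the gate, whose level given above was lowest in those cells. In the first contrast 4 of 15 were higher and 3 lower (median 0.08), with minoxidil 3 and 2 (-0.18), and with PGE2 5 and 2 (0.33). Loxl1, the elastin cross-linking oxidase, was at 229.9, 97.2, 244 and 242 CPM and Ltbp4, which helps fibulin-5 place elastin, at 147, 28.8, 148 and 188 CPM, both lowest in the Tbx1neo2/neo2 carrier cells. Lox and Loxl2, the oxidases with a broader role in collagen, were highest there among the libraries of the first contrast, at 103, 241, 193 and 190.3 and 118, 313, 96.5 and 88.7 CPM. Mfap4 and Fbn2, microfibril genes of embryonic tissue, were at 330.5, 727, 418 and 573 and 178, 396, 103 and 188 CPM. Microfibril and cross-linking genes were therefore present in the cells that had little Eln. Of the hydroxylases and cross-linkers 3 of 9 genes were higher and 1 lower in the first contrast, 2 and 2 of 10 with minoxidil, and 1 and 2 of 10 with PGE2.

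Many fibroblast matrix genes were higher in the Tbx1neo2/neo2 carrier cells, although not all. Of 26 genes of the fibrillar list 13 were higher and 3 lower in the first contrast (median log2 ratio 1.02), and of 27 genes 4 were higher and 18 lower with minoxidil (-1.86), and 6 and 15 with PGE2 (-1.17). Aspn, asporin, a small proteoglycan of the sheath of tendons and cartilage, ran from 1 to 78 UMIs in the 14 Tbx1neo2/neo2 carrier cells and had none in Tbx1+/+ carrier or minoxidil cells and at most 4 in PGE2 cells. Its level was 0 (0 to 10.6), 972 (859.5 to 1095), 0 (0 to 23.7) and 8.97 (4.10 to 17.0) CPM, and 0.241%, 2.33%, 1.14% and 1.03% of Ptprc+ cells had a UMI. Ogn, the related osteoglycin, was at 69.0, 612, 83.6 and 156 CPM, Fibin at 14.4, 414, 6.43 and 7.97 CPM and Igf1, the growth factor, at 112, 641, 0 and 16.9 CPM. The type I collagen genes Col1a1 and Col1a2 were at 1368, 2553, 727 and 1157 and 1299, 2495, 1229 and 1537 CPM, and Col12a1, of tendon and fascia, at 94.8, 493, 77.2 and 124 CPM. Mgp, Igf2 and Igfbp7 were the 3 lower genes of the list in the first contrast, Igf2 at 1506, 587, 1749.6 and 1712 CPM and Igfbp7, a vessel-wall binding protein, at 103, 28.8, 109 and 231 CPM. Part of this was found in the whole library, since in the other gate cells Aspn was at 228 against 16.1 CPM and Fibin at 446 against 16.1 CPM in the first contrast, both called higher, while Igf1 was at 450 against 442 CPM and the list median was 0.40. Basement membrane collagen was lower in the Tbx1neo2/neo2 carrier cells. Col4a1, which surrounds vessels, was at 342, 54.0, 457 and 441 CPM. Of the basement membrane list 0 of 9 genes were higher and 4 lower in the first contrast. With minoxidil 3 and 1 of 11 were higher and lower, and with PGE2 3 and 0 of 10. In the first contrast 2 of the 4 lower calls were left without the top cell of the gene. The list median there was -0.72 in the selected and -0.78 in the other gate cells.

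Cartilage and tendon genes were higher in the Tbx1neo2/neo2 carrier library, in the selected and in the other gate cells. Sox9, the master factor of cartilage, had UMIs in 2 of 18, 13 of 14, 0 of 4 and 4 of 32 cells, at 11.5 (3.13 to 29.4), 306 (244 to 378), 0 (0 to 23.7) and 5.98 (2.19 to 13.01) CPM, against 3.46%, 5.38%, 2.65% and 1.80% of Ptprc+ cells. Scx, scleraxis, the tendon factor, had UMIs in 5, 11, 0 and 1 cells, at 51.7, 245, 0 and 0.996 CPM. The 17 measured genes of the chondrogenic list summed to 184, 1048, 51.5 and 77.7 CPM in the selected cells and 206, 1769, 219.5 and 179.7 CPM in the other gate cells. All 6 genes tested, Sox9, Scx, Matn4, Col9a2, Col9a3 and Col11a1, were higher in the first contrast, 5 were lower with minoxidil, and 6 were lower with PGE2. Sox9 was also uneven in the other gate cells, at 31.4, 420.3, 39.9 and 33.4 CPM, and in the 265 cells below the Eln limit it was at 444 CPM. Col2a1, the main cartilage collagen, was limited to 1 UMI by the rule, and 11 Tbx1neo2/neo2 carrier cells missed that limit alone. Among TGF beta and myofibroblast genes 6 of 12 were higher and 1 lower in the first contrast, with Tnc at 28.7, 191, 0 and 11.95 CPM and Tgfb3 at 28.7, 137, 19.3 and 11.95 CPM. Of these genes 3 of 13 were higher and 6 lower with minoxidil and 5 of 15 and 6 with PGE2, where Ctgf, a target of mechanical and TGF beta signals, was at 141, 25.2, 251 and 213 CPM.

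Hox genes, which mark the position of mesenchyme along the body axis, were found in part in the Tbx1neo2/neo2 carrier cells alone. Hoxa7, Hoxc6 and Hoxc8 were at 50.4 (27.6 to 84.6), 57.6 (32.9 to 93.5) and 57.6 (32.9 to 93.5) CPM there, with 0 UMIs in the Tbx1+/+ carrier and minoxidil cells and 1, 0 and 0 UMIs with PGE2. More anterior genes were found in all 4 libraries, Hoxa3 at 54.6, 14.4, 25.7 and 23.9 CPM and Hoxb4 at 48.9, 68.4, 32.2 and 6.97 CPM. The list summed to 229.9, 562, 129 and 115 CPM in the selected and 318, 726, 339 and 273 CPM in the other gate cells, so that the same library was highest in both. In the first contrast 3 of 6 Hox genes were higher and 0 lower. With minoxidil 0 of 5 were higher and 3 lower, and with PGE2 0 and 4 of 5, Hoxb4 being the fourth. Once the top cell of each gene was left out, 0 of these calls remained in the first contrast, 0 with minoxidil and 1 with PGE2. Hoxa7, Hoxc6 and Hoxc8 stood near the floor of 50 CPM, so this loss cannot show that 1 cell carried them. The 3 genes were thus high in 1 of the 3 libraries of the Tbx1neo2/neo2 genotype. Position along the body and library cannot be told apart. Tbx1 itself had 0, 0, 0 and 2 UMIs, both in 1 PGE2 cell, so that its level was not detectable at this depth.

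The genes with the largest ratios were mural, matrix, sex-linked and neurofilament genes among others. In the first contrast Rgs5 had the lowest log2 ratio of the Tbx1neo2/neo2 carrier to the Tbx1+/+ carrier library, -7.87 (-13.18 to -5.39), followed by Jag1 at -5.63 (-10.96 to -3.10) and Mgp at -5.61 (-6.62 to -4.77). Nkain4, Pde3a, Socs3 and Tm4sf1, an endothelial and mural membrane protein, were also among the lowest, Tm4sf1 at -4.29 (-6.19 to -2.89). For the sex-linked Xist, for Spon1, an extracellular spondin, and for Itga4, the integrin α4 chain, the level in the Tbx1neo2/neo2 carrier cells was 0 and the ratios were at most -5.25, -4.63 and -4.26 against a floor of 3 UMIs per library. At the other end stood Aspn with at least 6.82, C1qtnf3 with at least 4.93 and Dkk2, a WNT antagonist, with at least 4.35, each having 0 UMIs in Tbx1+/+ carrier cells, and Angptl1 at 5.97 (3.42 to 11.30), Fibin at 4.85 (3.58 to 6.50) and Sox9 at 4.73 (3.33 to 6.64). Nefm and Nefl, subunits of neurofilaments, were also higher, at 6.61 (4.09 to 11.93) and at least 4.17, with 48.7% and 47.3% of their UMIs in 1 cell. Mab21l2 and Col25a1 completed the 10 highest.

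With minoxidil, Rgs5 was highest at a log2 ratio of 8.31 (5.82 to 13.62) to the Tbx1neo2/neo2 carrier cells, then Mgp at 6.13 (5.28 to 7.15), Jag1 at 5.97 (3.39 to 11.31), the sex-linked Xist with at least 5.79, Tm4sf1 at 5.16 (3.75 to 7.07) and the stress factor Atf3 at 4.97 (3.70 to 6.63). Prdm6 and Nr4a1 followed, whereas Lpl and Adarb1 had 88.2% and 64.7% of their UMIs in 1 of the 4 cells and were no longer called without those UMIs. Fibin at -6.01 (-11.32 to -3.50), Runx1, a blood and skeletal factor, at -5.41 (-10.73 to -2.89) and Meox1 at -5.07 (-10.40 to -2.54) were lowest, with Aspn at most -5.65 and Igf1 at most -5.05, both having 0 UMIs with minoxidil. Dlk1, the imprinted inhibitor of differentiation, was lower at -4.89 (-6.53 to -3.65), as were Id2, Plpp3, Pappa and Fxyd6.

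With PGE2, Rgs5 was again highest at 7.87 (5.39 to 13.18), with Mgp at 6.01 (5.17 to 7.02), Tm4sf1 at 5.60 (4.23 to 7.48), Jag1 at 5.48 (2.98 to 10.79), Pde3a at 5.40 (2.90 to 10.72) and Slit3, a secreted guidance cue, at 5.07 (2.56 to 10.38). Scx at -7.94 (-13.27 to -5.41), Agtr2 at -7.35 (-12.68 to -4.79) and Aspn at -6.76 (-7.90 to -5.81) were among the lowest, beside Nefl, Nefm, Col26a1, Rgcc, C1qtnf3, Dkk2 and Fibin. Both drug contrasts divide by the same 14 cells, so the shared genes are not independent, and the Tbx1+/+ carrier cells had levels near those of the drug libraries for Rgs5, Mgp and Jag1.

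**Figure D5:**
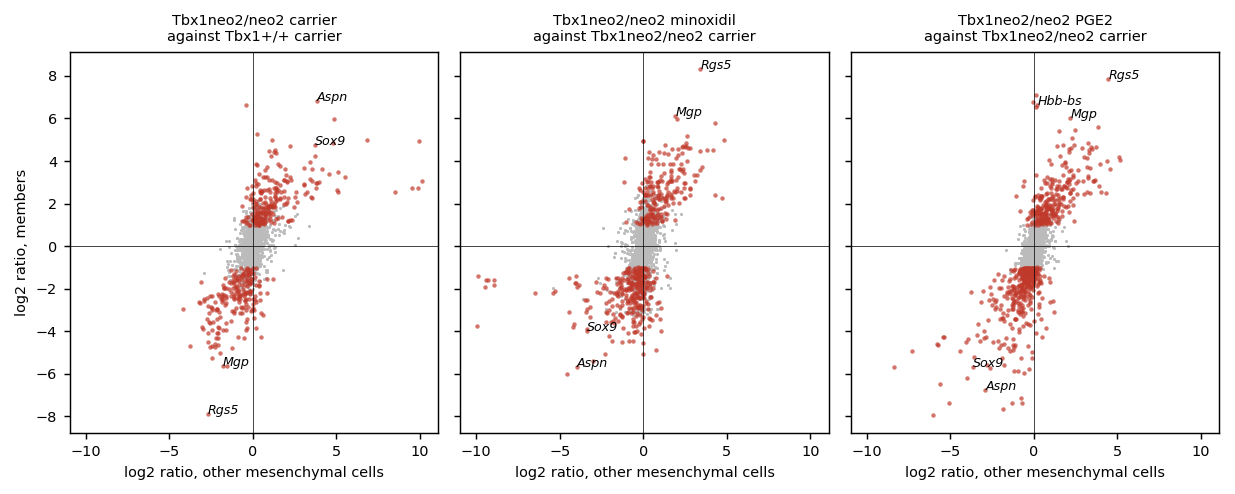
Log2 ratio of each gene between 2 libraries in the selected cells (vertical axis) against the same ratio in the other gate cells (horizontal axis), 1 panel per contrast, with called genes in red and a level of 0 set at a floor of 3 UMIs. Rgs5 and Mgp lie below 0 in the first panel and above 0 in the other panels, Aspn and Sox9 on the opposite side, and Hbb-bs stands apart with PGE2.

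Immediate early genes, which respond within minutes to growth factors and to tissue digestion, differed with the same library. Of 23 genes of that list 2 were higher and 13 lower in the first contrast, 14 of 25 higher and 2 lower with minoxidil, and 12 of 22 and 2 with PGE2. Fos was at 1233, 205, 2090.5 and 1903 CPM in the selected and 1114, 149.7, 1385 and 1401 CPM in the other gate cells, and Junb at 382, 32.4, 521 and 382 and 399, 65.7, 411 and 408 CPM. The other gate cells of the Tbx1neo2/neo2 carrier library thus also had the lowest levels. Ldha and Bnip3, genes of glycolysis and low oxygen, were the 2 higher genes, Bnip3 at 5.75, 82.8, 0 and 2.99 CPM. The part of this library-wide difference in the other calls was not tested.

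Sex-linked transcripts also differed between libraries. Xist, expressed from the inactive X chromosome of female cells, had UMIs in 13 of 18, 0 of 14, 4 of 4 and 0 of 32 cells, and the Y-linked Ddx3y in 3, 8, 0 and 29. In 1 Tbx1+/+ carrier cell both were found. Among Ptprc+ cells of the same libraries 26.1%, 34.9%, 97.3% and 0.257% had Xist and 52.3%, 36.9%, 0% and 71.2% Ddx3y, so that both carrier libraries held cells of either kind. Of the selected Tbx1+/+ carrier cells all 13 with Rgs5 had Xist, and none of the 5 without Rgs5 did, 2 of these having Ddx3y. The minoxidil cells thus had the transcripts of female embryos, the Tbx1neo2/neo2 carrier and PGE2 cells those of male embryos, and the Tbx1+/+ carrier cells both. Sex therefore differed along with group in the minoxidil contrast and in part in the first one, where they cannot be told apart. The PGE2 contrast set cells without Xist against cells without Xist, with 0 of 2 sex-linked genes called, and Rgs5, Mgp, Jag1 and Aspn were called there. The part of sex in the calls of any contrast was not tested.

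Markers of other cell types were low apart from those of blood in 1 cell, although a few were called between libraries. The erythroid list of 9 genes summed to 141, 238, 135 and 19599.6 CPM, with Hbb-bs the gene of most UMIs in each library. A single PGE2 cell of 54638 UMIs had 35.6% of its UMIs on haemoglobin genes and held 99.2% of the Hbb-bs UMIs of that library, and no other selected cell had over 1%. Hba-a1, Hba-a2, Hbb-bs and Hbb-bt, called higher with PGE2, were no longer called without that cell. No doublet caller was run. The endothelial list of 11 genes summed to 66.1, 21.6, 38.6 and 47.8 CPM, with 5, 3, 3 and 6 genes found and Cdh5 at 0 by the rule, the blood list of 14 genes to 17.2, 21.6, 25.7 and 9.96 CPM with 5, 4, 2 and 8 genes found and Ptprc at 0 by the rule, and the epithelial list of 13 genes to 147, 100.8, 25.7 and 43.8 CPM with 10, 4, 3 and 8 genes found and Epcam at 0 by the rule. No gene of these 3 lists exceeded 46.8 CPM in any library. Skeletal muscle genes summed to 115, 126, 19.3 and 45.8 CPM, with Tnni1 or Tnnt1 the gene of most UMIs, and heart muscle genes to 48.9, 7.20, 19.3 and 20.9 CPM. Mesothelial genes were at 155, 97.2, 6.43 and 7.97 CPM, with Krt19 the main gene in the carrier libraries at 92.0 and 28.8 CPM. In the first contrast Krt19 was called lower and Tnnt1 and Hbb-bt higher, at 5.75 against 54.0 and 8.62 against 50.4 CPM in the Tbx1+/+ and Tbx1neo2/neo2 carrier cells, and Tnnt1 was called lower with PGE2. None of these calls was left without the top cell of the gene. Tnnt1 and Hbb-bt stood near the floor of 50 CPM, where few UMIs decide a call. The part of such markers in the other calls was not tested. Glial and neuronal genes summed to 48.9, 25.2, 12.9 and 34.9 CPM and those of parathyroid and thyroid to 20.1, 0, 0 and 0.996 CPM. Of 19 genes of visceral and airway smooth muscle 8, 11, 5 and 9 had UMIs, summing to 425, 500.4, 122 and 326 CPM, with Actg2 the gene of most UMIs in the Tbx1+/+ carrier and PGE2 cells, Wnt5a in the Tbx1neo2/neo2 carrier cells and Smo in the minoxidil cells.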

How the data were processed

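Filtered gene-by-cell matrices of UMI counts, 1 per library, were used as deposited. The submitters' processing notes name Cell Ranger 5.0.1, Seurat and the mm10 build, and whether intronic reads were counted is not given in the sources used here. The authors' matrices hold raw counts of 27998 features for 11908, 11364, 3362 and 4471 barcodes, with library totals of 292687940, 194023208, 151740600 and 156363845 UMIs, in the order Tbx1+/+ carrier, Tbx1neo2/neo2 carrier, minoxidil and PGE2. Cells, gate and selected cells were taken by the limits given in the report, and the other gate cells were all gate cells not selected. No doublet caller was run.

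The members and the 26 gene lists were chosen with earlier results of these data known, and the alternatives that leave out a gene's top cell or a library were added after the data were seen. UMIs were summed per library and cell set and scaled to CPM, with exact Poisson intervals. Ratios have exact conditional binomial intervals, and a level of 0 was compared at 3 UMIs per library. With 1 library per group no test was run and no p-value is given. Named genes were the genes of the rule, the 20 highest and 10 lowest in the selected against the other gate cells over all 4 libraries at 50 CPM or more, the 10 highest and 10 lowest ratios per contrast at 100 CPM or more with intervals apart, the called and most abundant genes of each list, and Tbx1. Others were chosen for their roles after their values were seen. Alternatives were thinning to 10000 UMIs, a mitochondrial limit of 5%, doubled limits (Acta2 20, Tagln 10, Eln 6) and lowered limits (5, 3 and 2), floors of 20 and 200 CPM, a 1.5-fold threshold, an upper UMI limit of 2 times the library median, and TMM scaling. Python 3.11.15, numpy 2.4.6, pandas 2.3.3, scipy 1.17.1, matplotlib 3.10.9, R 4.3.3 and edgeR 4.0.16 (TMM factors only) were used. The calls were tested on simulated Poisson counts without variation between cells, so that test does not cover calls carried by few cells. Gene positions are from GENCODE vM21 and promoters from RefSeq (GRCm38.p6).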

Additional observations from a re-analysis of the deposited data

Results flagged for a closer look

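In 8 cases a gene that neither the gate nor the rule used was called in opposite directions between the same libraries in the selected and in the other gate cells, and these differences were not tested. The other gate cells of the Tbx1neo2/neo2 carrier library include the 265 cells below the Eln limit, whose part in them was not tested. Between the Tbx1neo2/neo2 carrier and the Tbx1+/+ carrier library, Foxc1, a forkhead factor of neural crest mesenchyme, had a log2 ratio of -1.55 in the selected and 1.20 in the other gate cells. With minoxidil, Gsn, the actin-severing gelsolin, was at -2.90 in the selected and 1.08 in the other gate cells, Gdf10, a growth factor of the BMP family, at -1.39 and 1.45, and Tubb6, a tubulin, at -3.97 and 1.05. Zfhx3, a zinc finger homeobox factor, was higher in the selected cells at 1.14 and lower in the others at -1.05. With PGE2, Gdf10 was at -3.08 in the selected and 1.23 in the other gate cells and Tubb6 at -2.57 and 1.14, whereas Gas2, a cytoskeletal protein, was at 2.34 and -1.09. Gdf10 and Tubb6 thus differed in the same way with both agents, in contrasts that share the Tbx1neo2/neo2 carrier library. In that library both were also called higher in the selected cells than in the 265 cells below the Eln limit. Gdf10 was at 50.4 against 20.4 CPM and Tubb6 at 100.8 against 43.2 CPM.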

How the results depend on the processing

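Medians near 0 changed sign. The Tbx1+/+ carrier share changed from 0.743% to 0.433% at a mitochondrial limit of 5% and to 0.413% with doubled limits, the Tbx1neo2/neo2 carrier share from 0.269% to 0% with doubled and 1.08% with lowered limits, the minoxidil share from 0.463% to 0% at the 5% limit and 0.927% with lowered limits, and the PGE2 share from 4.17% to 2.80% at the 5% limit. After thinning the minoxidil share of 0.703% lay above the Tbx1+/+ carrier share of 0.481%, the reverse of the order on raw UMIs, with intervals that overlapped in both. Counts of higher and lower genes in the first contrast were 117 and 115 at the 5% limit, 82 and 47 at a floor of 200 CPM, and 127 and 107 without each gene's top cell. The counts were 84 and 124 (200 CPM) or 61 and 172 (top cell out, 170 of the latter also called with it) with minoxidil, and 64 and 104 at 200 CPM with PGE2, where 194 lower calls were left with the top cell out. The contractile median with minoxidil turned from -0.11 to 0.44 after thinning and 0.13 with lowered limits. The elastic fibre median turned from -0.18 to 0.59 after thinning with minoxidil, and in the first contrast from 0.08 to between -0.19 and -0.02 after thinning, at the 5% limit, without cells over 2 times the median UMIs and as a mean of per-cell CPM. Leaving out 1 library gave 16 to 85 genes higher and 33 to 121 lower than in other gate cells, the highest without the Tbx1neo2/neo2 carrier library. TMM scaling shifted all log2 ratios by -0.02, 0.11 and 0.11. The contrasts were not run with doubled limits, which left 0 Tbx1neo2/neo2 carrier cells, nor for minoxidil at the 5% limit, which left 0 minoxidil cells. No paired analysis was possible because each group had 1 library. Only 4 to 32 cells stand for a library, of which 6, 4, 0 and 12 were also chosen after thinning, and embryo, library and treatment cannot be told apart, nor sex in the first and the minoxidil contrast.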

Other observations

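The cell cycle and T-box lists were counted as wholes. Of the cycling list 0 of 11 genes were higher and 1 lower in the Tbx1neo2/neo2 carrier than in the Tbx1+/+ carrier cells, 2 of 12 higher and 1 lower with minoxidil, and 3 of 10 higher and 2 lower with PGE2. Cdkn1c, an imprinted inhibitor of the cell cycle, was the gene of most UMIs in that list in all 4 libraries, at 3489, 5443, 2168 and 1949 CPM. It was called lower with both agents, in contrasts that share the Tbx1neo2/neo2 carrier cells. Of 8 T-box genes Tbx2, Tbx3 and Tbx5 reached 50 CPM, and each of these 3 was higher in the Tbx1neo2/neo2 carrier cells than in each of the 3 other libraries. In each contrast only 1 of these 3 calls was left without the top cell of the gene. The list summed to 43.1, 245, 32.2 and 42.8 CPM in the selected and 176, 277, 141 and 138 CPM in the other gate cells.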
